A study of Rattus norvegicus with 30 samples.

Results

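The 10 genes described here mark the mural cells of blood vessels, the pericytes of capillaries and the smooth muscle cells of arteries, and were chosen by name as widely used markers of these cells. All 10 (Pdgfrb, Notch3, Acta2, Tagln, Myh11, Des, Rgs5, Cspg4, Anpep and Eln) were found by symbol among the 17134 genes of the table, and all 10 passed the filter on low values in every comparison. RNA of brain tissue was sequenced from 30 male Sprague Dawley rats on a normal diet, 10 wild type (WT), 10 HIP and 10 AKO. WT rats carry the rat amylin gene alone, whose peptide does not form amyloid. HIP rats also carry human amylin, which forms amyloid, under control of pancreatic β-cells, so the transgene is expressed in the pancreas and not by the brain cells sampled here, and these rats develop type 2 diabetes. AKO rats lack rat amylin. The HIP and WT rats were 15 to 16 months old, and the age of the 10 AKO rats sequenced was not given in the sources used here. In the deposited table Cspg4 is ENSRNOG00000017208, Notch3 ENSRNOG00000004346, Des ENSRNOG00000019810 and Eln ENSRNOG00000001469. Amylin itself (Iapp) is not analysed here, so the genotypes were not checked on the targeted gene.

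The values are normalized counts per gene, which the authors made from the reads with DESeq2, and 1 read was worth 0.727 to 1.37 normalized counts by rat. Estimated reads on genes had a median of 19.1 M in WT rats (12.9 to 21.1 M), 15.7 M in HIP rats (13.7 to 16.7 M) and 16.1 M in AKO rats (12.9 to 23.6 M). WT rats were thus sequenced more deeply than HIP rats, and the part of depth in the results was not tested. Differences are log2 fold changes of the normalized count plus 1 from limma, 2-sided, with 10 rats a group. Unadjusted p-values under 0.05 were counted, and adjustment followed Benjamini and Hochberg over every gene tested in a comparison.

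Platelet-derived growth factor from endothelial cells binds the receptor encoded by Pdgfrb and recruits pericytes to the capillary wall. Notch3 receives signals from endothelial ligands and is needed for arterial smooth muscle to mature. In mature smooth muscle, serum response factor binds a short motif, the CArG box, in the promoters of Acta2, Tagln and Myh11, and the cells contract to set the flow of blood through the cortex.

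The labels name the tissue as frontal cortex, whereas the study's text names it hippocampus and cerebral cortex in different places. The most abundant of 9 tested genes listed as neocortical layer markers was Slc17a7, a vesicular glutamate transporter, at 27077 ± 6207 normalized counts in WT rats, 30523 ± 3387 in HIP rats and 31451 ± 6098 in AKO rats (SD, n = 10 each). Its lowest value in a WT rat was 12337. Which of the named tissues was sampled was not tested, and the level of Slc17a7 is not given as evidence of it. None of the 9 was at 0 in every rat of a group. WT rat 10RT43 stood apart, with a mean log2 value of the neocortical markers of 6.01 against 10.0 to 10.7 in the other WT rats. The same rat had a mean log2 value of 12.2 for the 7 cerebellum markers, among them 17979 normalized counts of Gabra6, a receptor subunit of cerebellar granule cells, whose WT median was 6.20 and which was named after its values were seen. HIP rat 10RT46 had a mean log2 value of 9.94 for the 7 pineal gland markers, 1 of which was at 0 in every WT rat and 1 in every AKO rat, and 8.59 for the 12 choroid plexus markers. Over all genes the median correlation of a rat with the other rats was 0.885 for 10RT43, 0.948 for 10RT46, 0.949 for AKO rat 6KAH98 and 0.953 for AKO rat 4KAH27, and at least 0.965 for every other rat. No pair of libraries was identical, and the highest correlation between libraries was 0.989.

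The receptors Pdgfrb and Notch3 had their highest mean in AKO rats and their lowest in WT rats. Pdgfrb measured 494 ± 87.6 normalized counts in WT rats, 529 ± 70.5 in HIP rats and 584 ± 136.1 in AKO rats (SD, n = 10 each), and neither step in this order passed the test (p = 0.293 and 0.317). Notch3 ranged from 160.0 to 381 in WT rats with a median of 248, from 155.1 to 418 in HIP rats with a median of 294, and from 215 to 567 in AKO rats with a median of 308. The AKO rats 4KAH35 (567) and 6KAH99 (467) lay above every WT rat, 3 WT rats lay below every AKO rat, and the groups otherwise overlapped. As means, Notch3 was at 259 ± 73.5 in WT rats, 302 ± 81.6 in HIP rats and 339 ± 110 in AKO rats (SD, n = 10 each).

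The promoter of Notch3 is shown from RefSeq promoter sequences of build GRCr8 (the reads were aligned to rn7), in which 6 of the 10 genes were matched, because Notch3 had an unadjusted p under 0.05 between AKO and WT rats (adjusted p = 0.533). It covers 250 bases before to 50 bases after the start of the gene, at chr7:11834536-11834835 on the minus strand. The core letters of the site of RBPJ, the DNA-binding partner of Notch receptors, GTGGGAA, were searched on both strands and were in 0 of the 6 promoters and in 6.29% of all 33469 promoters of the table. No match says only that these letters are not in this window.
Notch3: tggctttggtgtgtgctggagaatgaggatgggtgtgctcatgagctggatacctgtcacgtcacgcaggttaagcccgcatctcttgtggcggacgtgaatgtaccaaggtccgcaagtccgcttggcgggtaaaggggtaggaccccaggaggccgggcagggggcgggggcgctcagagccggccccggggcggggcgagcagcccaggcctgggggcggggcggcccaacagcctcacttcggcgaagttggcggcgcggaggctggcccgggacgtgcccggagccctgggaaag

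The contractile genes Acta2, Tagln and Myh11 encode smooth muscle actin, the actin-binding protein transgelin and the heavy chain of smooth muscle myosin. All 3 had their highest mean in WT rats and their lowest in HIP rats. Acta2 ranged from 255 to 625 normalized counts in WT rats with a median of 482, from 209 to 439 in HIP rats with a median of 358, and from 204 to 660 in AKO rats with a median of 379. WT rats fell on both sides of a gap, with 6 of the 10 above every HIP rat and the others inside the HIP range, while 10 of 10 HIP rats were below the WT median. Tagln ranged from 410 to 1005 in WT rats with a median of 736, from 417 to 714 in HIP rats with a median of 577, and from 396 to 1132 in AKO rats with a median of 634. Here too 10 of 10 HIP rats were below the WT median, 5 of 10 WT rats were above every HIP rat, and 1 WT rat, 10RT43, was below every HIP rat. Myh11 measured 575 ± 165 in WT rats, 489 ± 126 in HIP rats and 507 ± 167 in AKO rats (SD, n = 10 each), with 8 of 10 HIP rats below the WT median.

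**Figure D1:**
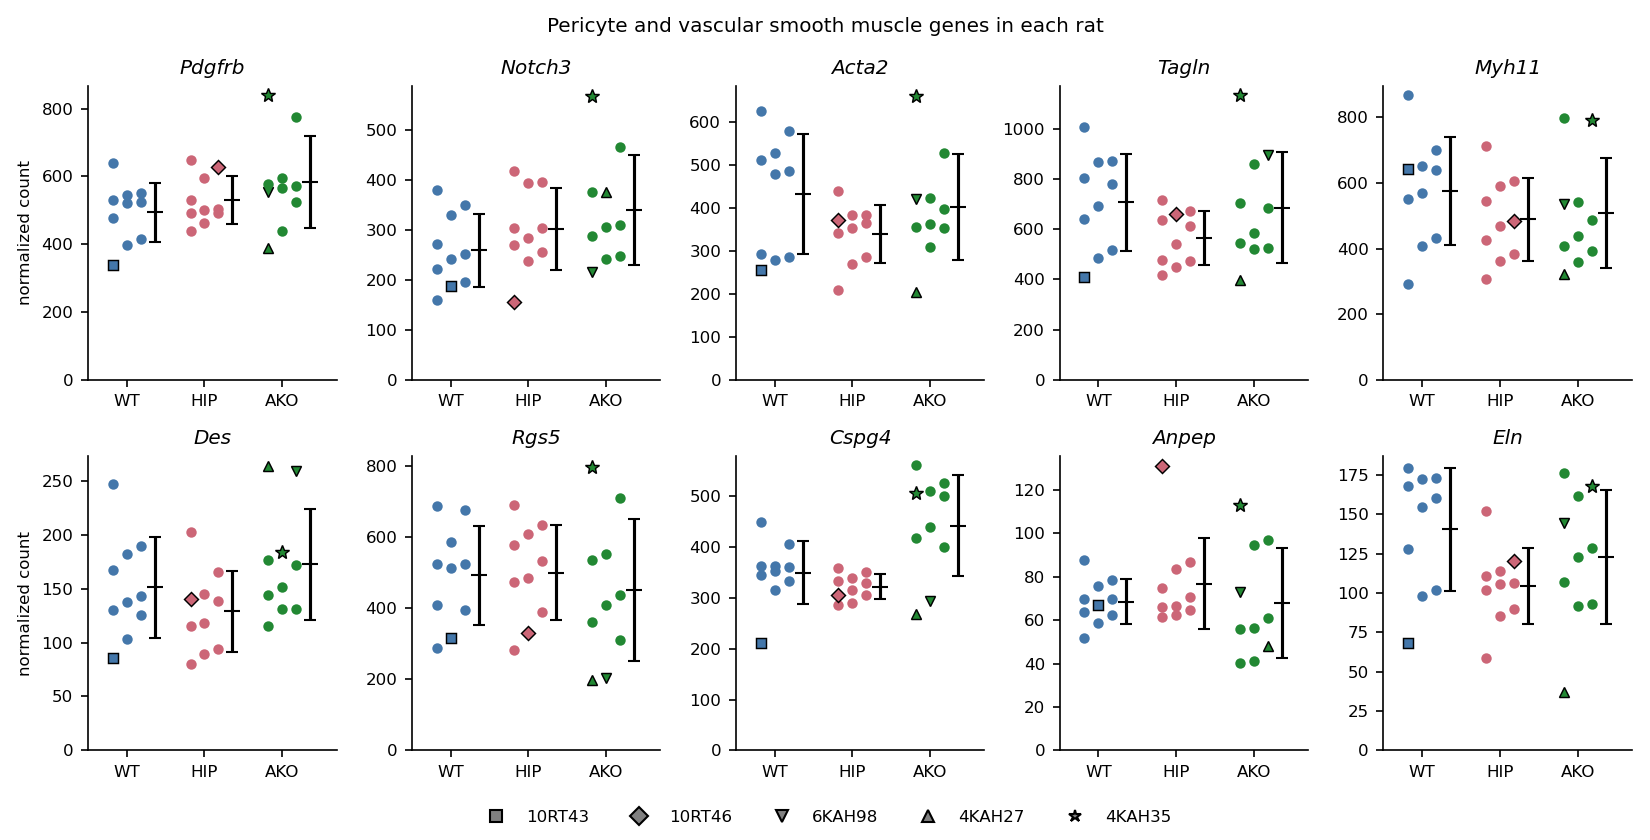
Normalized count of each of the 10 genes (vertical axes, each from 0) in every WT, HIP and AKO rat, with the group mean and SD as bars. Marked symbols show 10RT43, 10RT46, 6KAH98, 4KAH27 and 4KAH35. The groups overlap for every gene, and for Cspg4 the HIP rats lie between 287 and 358, with 8 of 10 AKO rats above them.

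Promoters of the contractile genes were looked at because several of these genes correlated from rat to rat. Those shown are Acta2, at chr1:241172454-241172753 on the minus strand, and Des, at chr9:84299376-84299675 on the plus strand. Pdgfrb, Tagln, Myh11 and Eln have no promoter entry. The CArG box in its strict form was in 0 of the 6 promoters and in 1.64% of all 33469. A form with 1 G or C among its 6 central bases, which was chosen after the strict form had given no match, was in the promoter of Acta2 alone among the 6 and in 8.10% of all promoters. Its letters, in capitals, lie at bases -134 to -125 and -84 to -75 from the start of Acta2. A match is a description of the letters, not of binding.
Acta2: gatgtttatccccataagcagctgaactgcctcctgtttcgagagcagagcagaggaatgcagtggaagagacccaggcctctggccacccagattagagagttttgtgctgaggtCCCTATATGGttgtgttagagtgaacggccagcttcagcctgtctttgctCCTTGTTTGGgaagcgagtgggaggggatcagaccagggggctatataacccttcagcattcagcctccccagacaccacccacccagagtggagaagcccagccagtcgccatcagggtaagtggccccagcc
Des: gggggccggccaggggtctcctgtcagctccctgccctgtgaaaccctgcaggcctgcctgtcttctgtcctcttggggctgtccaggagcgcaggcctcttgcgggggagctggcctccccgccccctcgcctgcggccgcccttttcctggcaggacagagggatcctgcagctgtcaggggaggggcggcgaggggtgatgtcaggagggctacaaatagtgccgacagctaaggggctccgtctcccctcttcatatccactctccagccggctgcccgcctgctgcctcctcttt

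Des encodes desmin, the intermediate filament of muscle cells, which pericytes also make. It ranged from 86.1 to 247 normalized counts in WT rats with a median of 140.2, from 80.4 to 202 in HIP rats with a median of 128, and from 115 to 263 in AKO rats with a median of 161. The AKO rats 4KAH27 (263) and 6KAH98 (259) were above every WT and HIP rat, and 3 HIP rats were below every AKO rat. As means, Des was at 151.2 ± 46.9 in WT rats, 129 ± 37.6 in HIP rats and 173 ± 51.5 in AKO rats (SD, n = 10 each).

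Rgs5, a regulator of G-protein signalling that marks pericytes, had close means of 492 ± 137.9 in WT rats, 499.5 ± 134.4 in HIP rats and 451 ± 199 in AKO rats (SD, n = 10 each), and in the order of means neither step passed the test, from HIP to WT (p = 0.889) or from WT to AKO (p = 0.396). Its spread was widest in AKO rats, from 199 in 4KAH27 and 204 in 6KAH98 to 796 in 4KAH35. Anpep encodes aminopeptidase N, a membrane peptidase of pericytes and fibroblasts, and measured 68.5 ± 10.4 in WT rats, 76.8 ± 20.8 in HIP rats and 68.0 ± 25.4 in AKO rats. The HIP spread of Anpep came with 1 rat, 10RT46, at 130.9 against 61.7 to 86.7 in the other 9, and this rat was also highest in its group for the pineal gland and choroid plexus markers. Anpep was above the AKO median of 58.6 in 10 of 10 HIP rats, and 6 AKO rats were below every HIP rat, yet the difference did not pass the test (0.22, p = 0.254).

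Cspg4 encodes the proteoglycan NG2, which pericytes and smooth muscle cells share with oligodendrocyte precursor cells. It ranged from 212 to 448 normalized counts in WT rats with a median of 357, from 287 to 358 in HIP rats with a median of 323, and from 267 to 560 in AKO rats with a median of 470. HIP rats were the most alike, 8 of 10 AKO rats lay above all of them, and the AKO rats 4KAH27 (267) and 6KAH98 (293) lay inside or below their range. As means, Cspg4 was at 350 ± 61.4 in WT rats, 321 ± 24.6 in HIP rats and 442 ± 99.1 in AKO rats (SD, n = 10 each). Its promoter is shown because the largest difference among the 10 genes was that of Cspg4 between HIP and AKO rats, and it lies at chr8:66160692-66160991 on the plus strand.
Cspg4: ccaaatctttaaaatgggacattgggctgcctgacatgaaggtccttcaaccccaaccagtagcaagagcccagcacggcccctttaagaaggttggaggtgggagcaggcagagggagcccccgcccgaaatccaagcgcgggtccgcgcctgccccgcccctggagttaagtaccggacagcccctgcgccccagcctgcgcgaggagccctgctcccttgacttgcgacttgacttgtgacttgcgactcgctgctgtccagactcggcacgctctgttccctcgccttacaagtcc

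Eln encodes elastin, the core protein of the elastic fibres that smooth muscle cells and fibroblasts lay down in the arterial wall. It ranged from 68.2 to 180 normalized counts in WT rats with a median of 157.4, from 58.4 to 152.1 in HIP rats with a median of 106, and from 37.03 to 176 in AKO rats with a median of 126. In WT rats, 6 of 10 were above every HIP rat, and 10RT43 was lowest; 10 of 10 HIP rats were below the WT median. As means, Eln was at 140 ± 38.8 in WT rats, 104 ± 24.4 in HIP rats and 123 ± 42.6 in AKO rats (SD, n = 10 each).

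The first comparison asks how the brains of rats that make human amylin in the pancreas differ from those of WT rats. Eln fell by 0.40 on the log2 scale in HIP rats (SE 0.18, p = 0.0357, limma), the only one of the 10 genes with an unadjusted p under 0.05. The count of 1 of 10 lower and 0 of 10 higher stands beside 1.46% lower and 1.11% higher among all 17085 genes tested. After Benjamini-Hochberg adjustment limma called 0 of 17085 genes (0%) and 0 of the 10, against 439 genes with an unadjusted p under 0.05, and Eln had an adjusted p of 0.999. By the 2-sided permutation test over rats, Eln had p = 0.0449. The contractile genes had values in the same direction that did not pass the test: Tagln -0.29 (SE 0.15, p = 0.0651), Acta2 -0.30 (SE 0.18, p = 0.102), Myh11 -0.22 (p = 0.228) and Des -0.22 (p = 0.236). In all, 4 of the 10 values were above and 6 below 0, with a median of -0.16 against 0.00 over all genes. In bulk tissue, fewer cells of a type and less RNA per cell cannot be told apart.

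The p of Eln lay close to the threshold, and its value without single rats was from -0.51 to -0.31. It passed in 24 of 34 settings, and with all 30 rats in 1 fit it did not (-0.40, p = 0.0767). Its p was above 0.05 without WT rat 10RT44 (0.0590), 10RT50 (0.0640), 10RT39 (0.0640), 10RT51 (0.0663), 10RT45 (0.0624) or 10RT38 (0.0564), and without HIP rat 10RT41 (0.0591), 10RT54 (0.0761) or 10RT37 (0.0550). Without WT rat 10RT43, the library high in cerebellum markers, Eln passed (p = 0.00308) and Tagln (-0.38, p = 0.0108), Acta2 (-0.38, p = 0.0329) and Cspg4 (-0.18, p = 0.0127) passed with it, all lower in HIP rats. Tagln also passed without WT rat 10RT50 (p = 0.0304) or 10RT57 (p = 0.0392) or HIP rat 10RT48 (p = 0.0427). In none of the settings tried did an adjusted p of these 4 genes reach 0.05, and their adjusted p-values ran from 0.856, with sample-quality weights, to 1.

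**Figure D2:**
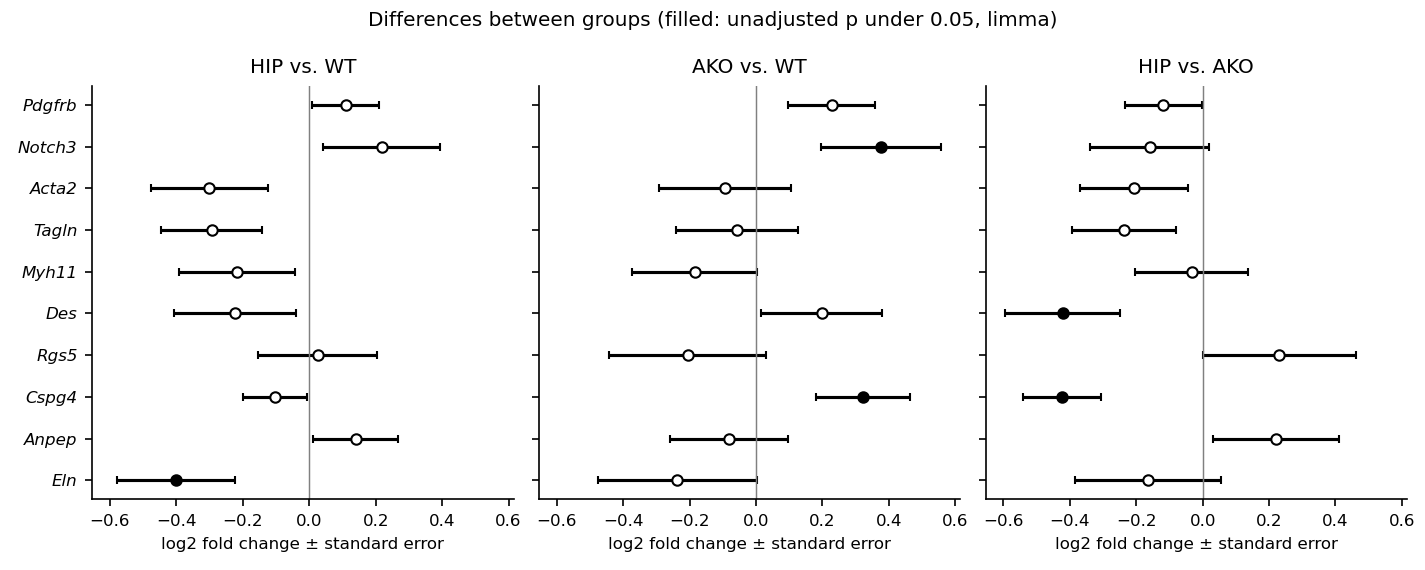
Log2 fold change (horizontal axis) of each of the 10 genes for HIP vs. WT, AKO vs. WT and HIP vs. AKO, with the standard error as bars, 10 rats a group. Filled points have an unadjusted p under 0.05 by limma: Eln in the first panel, Notch3 and Cspg4 in the second, Des and Cspg4 in the third.

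Other contractile smooth muscle genes were set beside the 10 in this comparison, and 3 of 18 tested were lower and 0 higher in HIP rats, beside 1.46% lower and 1.11% higher among all genes. They were Tpm2, a tropomyosin (fell by 0.22, p = 0.0213), Myl9, a regulatory light chain of myosin (fell by 0.24, p = 0.0381), and Actg2, enteric smooth muscle actin (fell by 0.59, p = 0.0430). Actg2 averaged 10.52 ± 3.74 in the HIP group against 16.6 ± 7.20 in the WT group (normalized counts, SD, n = 10 each), and since the actin genes share near-identical sequence, reads of Acta2 could have been split between them and its value is uncertain. The median of these 18 genes was -0.15 against 0.00 over all genes, and 13 of 18 values were below 0. Without the 4 rats of lowest profile correlation, a choice made after the data were seen, 4 of 18 were lower, with Tpm2 at p = 0.00904 and Myl9 at p = 0.0165.

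Lists around the receptors were compared between HIP and WT rats, beside 1.11% higher and 1.46% lower among all genes. Of 13 Notch ligands, receptors and targets, Hey2, a target of the pathway in arteries, was higher (0.23, p = 0.0465) and Notch4, an endothelial receptor, was lower (-0.18, p = 0.0461), and neither passed without the rats of low profile correlation (0.18, p = 0.0838, and -0.18, p = 0.0598). Of 17 genes of vascular tone, Adra1b, an adrenergic receptor, was higher (0.56, p = 0.0339, and p = 0.0533 without those rats). None of 4 PDGF ligands, 12 smooth muscle transcription factors, 18 other pericyte genes, 16 elastic fibre genes, 10 basement membrane genes or 11 genes of TGF-beta signalling had an unadjusted p under 0.05 by limma. The 16 elastic fibre genes other than Eln had a median of 0.03, with 11 values above 0.

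Markers of other cells that make the same genes were also compared. None of 14 endothelial, 15 fibroblast or 8 oligodendrocyte precursor markers had an unadjusted p under 0.05 between HIP and WT rats by limma. The summed level of the fibroblast markers, of which Igf2 was the most abundant, was 5064 ± 1931 in WT rats and 5234 ± 1794 in HIP rats (normalized counts, SD, n = 10 each). The summed level of the endothelial markers, of which Slc2a1 was the most abundant, was 7679 ± 963 in WT rats and 7657 ± 471 in HIP rats. No marker of these lists was at 0 in every rat of a group.

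The second comparison asks how the loss of rat amylin relates to the same genes, with the WT rats again as controls. Cspg4 rose by 0.32 in AKO rats (SE 0.14, p = 0.0326, limma) and Notch3 by 0.38 (SE 0.18, p = 0.0486), and for both 8 of 10 AKO rats were above the WT median. This is 2 of 10 higher and 0 of 10 lower, beside 5.23% higher and 4.12% lower among all 17058 genes tested. After adjustment 17 of 17058 genes (0.0997%) and 0 of the 10 were called by limma, against 1594 genes with an unadjusted p under 0.05, and the adjusted p was 0.484 for Cspg4 and 0.533 for Notch3. The permutation test over rats gave p = 0.0392 for Cspg4 and p = 0.0607 for Notch3. Pdgfrb had a value of 0.23 that did not pass (p = 0.0951), with 8 of 10 AKO rats above the WT median. Acta2 (-0.09), Tagln (-0.06), Myh11 (-0.18), Des (0.20), Rgs5 (-0.21), Anpep (-0.08) and Eln (-0.24) had p-values of 0.288 to 0.757. The median of the 10 was -0.07 against 0.00 over all genes.

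Both p-values lay close to the threshold, and above it without some single rats. The p of Cspg4 was above 0.05 without WT rat 10RT43 (0.0647) or 10RT55 (0.0501), or without AKO rat 6AKO52 (0.0598), 7AKO19 (0.0558), 4KAH35 (0.0562), 6KAH99 (0.0639) or 7AKO42 (0.0573). The p of Notch3 was above 0.05 without any of 13 of the 20 rats, the WT rats 10RT44 (0.0838), 10RT50 (0.0988), 10RT43 (0.0808), 10RT51 (0.0726), 10RT47 (0.0597), 10RT57 (0.0522) and 10RT55 (0.0639) and the AKO rats 6AKO52 (0.0548), 6AKO35 (0.0554), 4KAH35 (0.104), 6KAH99 (0.0937), 4KAH27 (0.0747) and 7AKO42 (0.0750). Its value without these rats was from 0.29 (4KAH35) to 0.39 (10RT57), against 0.38 with all, and that of Cspg4 without its 7 was from 0.24 (10RT43) to 0.31 (10RT55), against 0.32. Leaving out AKO rat 4KAH27 gave Pdgfrb a value of 0.29 (p = 0.0294). With sample-quality weights Cspg4 had an adjusted p of 0.0157, and without the rats of low profile correlation 0.0239, within a range of 0.0157 to 0.637 over the 35 settings tried.

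Of 16 elastic fibre genes other than Eln, 4 had an unadjusted p under 0.05, all higher in AKO rats, beside 5.23% higher among all genes, and 0 an adjusted one by limma. Among them were Efemp2, a fibulin that helps to assemble elastin (0.34, p = 0.00752), Loxl1, which cross-links it (0.55, p = 0.0116), and Fbln1 (0.40, p = 0.0394). Eln itself had a value of -0.24 (p = 0.336) and was lowest, at 37.03, in 4KAH27. The median of the 16 was 0.28 against 0.00 over all genes, and 3 of 16 were higher without the rats of low profile correlation. Of 10 basement membrane genes 2 were higher, beside the same 5.23%, Lamb2 (0.36, p = 0.00625) and Col4a2 (0.50, p = 0.0133), and 10 of 10 values were above 0. Mrtfa, a coactivator of serum response factor, was the 1 of 12 smooth muscle transcription factors that rose (0.31, p = 0.0130), with 10 of 10 AKO rats above the WT median.

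Among 18 other pericyte genes 2 were higher and 1 was lower in AKO rats, beside 5.23% higher and 4.12% lower among all genes. Ifitm1 was higher (0.82, p = 0.0242) and reached 249.6 normalized counts in 4KAH27 against an AKO median of 40.9, and Cd248, endosialin, was higher (0.31, p = 0.0350). Neither passed without the rats of low profile correlation (p = 0.0646 and 0.120). Edn1, the vasoconstrictor endothelin, was the 1 of 17 genes of vascular tone that was higher (0.53, p = 0.0371, and p = 0.103 without those rats). Tgfb1 was the 1 of 11 of TGF-beta signalling (0.35, p = 0.0397, and p = 0.125 without them). Both counts stand beside the same 5.23% higher among all genes. None of 13 Notch genes, 4 PDGF genes and 18 other contractile genes had an unadjusted p under 0.05 by limma.

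Some markers of other cells were higher in AKO rats, as Cspg4 was. Of 8 oligodendrocyte precursor markers, 2 were higher, Olig2 (0.35, p = 0.0362) and Olig1 (0.27, p = 0.0420), beside 5.23% of all genes, and 0 lower. Without the rats of low profile correlation neither passed (Olig2 0.16, p = 0.168, and Olig1 0.13, p = 0.0889). In that setting 1 other marker of the 8 was higher, the list median was 0.159 and Cspg4 was at 0.40. The summed level of the 8 markers was 5381 ± 705 normalized counts in WT rats, 5320 ± 696 in HIP rats and 6349 ± 787 in AKO rats (SD, n = 10 each). Olig1 was the most abundant at 2014 ± 237 in AKO rats, and none of the 8 was at 0 in every rat of a group. Microglia markers were higher in 5 of 9, beside 5.23% of all genes, led by Itgam (0.87, p = 8.45e-05, adjusted p = 0.0623), with a summed level of 4926 ± 868 in WT rats and 6443 ± 986 in AKO rats and Csf1r as the most abundant. Without those rats 6 of 9 were higher and 1 lower, and Itgam (adjusted p = 0.0106), Cd68 (0.0330, from 0.0698) and C1qa (0.0493, from 0.0790) passed the adjustment. Of 14 endothelial markers 1 was higher, Slc2a1 (0.24, p = 0.0467, and 0.11, p = 0.226 without those rats), and of 15 fibroblast markers 0 were called by limma. The part of these cells in the values of Cspg4 and Notch3 was not tested.

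The third comparison sets HIP against AKO rats, human amylin against no rat amylin, and shares its rats with the other comparisons. Cspg4 fell by 0.42 in HIP rats (SE 0.12, p = 0.00147, limma), with 10 of 10 HIP rats below the AKO median, and Des fell by 0.42 (SE 0.17, p = 0.0240), with 8 of 10 below it. This is 2 of 10 lower and 0 of 10 higher, beside 6.9% lower and 5.85% higher among all 17092 genes tested. After adjustment 29 of 17092 genes (0.17%) and 0 of the 10 were called by limma, against 2179 genes with an unadjusted p under 0.05, and the adjusted p was 0.149 for Cspg4 and 0.323 for Des. The permutation test over rats gave p = 0.00364 for Cspg4 and p = 0.0329 for Des. The other 8 genes had values from -0.24 (Tagln) to 0.23 (Rgs5), and none passed. The median of the 10 was -0.16 against 0.00 over all genes, and 8 of 10 values were below 0.

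The unadjusted p of Cspg4 was under 0.05 in all 36 settings tried for this comparison, from 1.89e-07 with sample-quality weights to 0.00642, and so without any 1 of the 20 rats. Its adjusted p was from 0.000294 to 0.267 and under 0.05 in 5 of the 36, among them 0.0223 without AKO rat 4KAH27 and 0.00137 without the 4 AKO rats whose numbers hold the letters KAH, a choice made after the data were seen. The call of Des was lost in 5 of the 36 settings. Its value was -0.35 without HIP rat 10RT53 (p = 0.0517) or AKO rat 4KAH27 (p = 0.0511), which had the highest Des, and -0.27 with sample-quality weights (p = 0.107). It was -0.28 without the rats of low profile correlation (p = 0.101) and -0.18 without the AKO rats numbered KAH (p = 0.324). Without 4KAH27, Acta2 (p = 0.0393), Tagln (p = 0.0395) and Eln (-0.34, p = 0.0431) passed, all lower in HIP rats.

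Of 10 basement membrane genes 5 were lower in HIP than in AKO rats and 0 higher, beside 6.9% lower among all genes, among them the collagen IV chains Col4a1 (-0.55, p = 0.000440, 10 of 10 HIP rats below the AKO median) and Col4a2 (-0.58, p = 0.000703) and the matrix protein Sparc (-0.40, p = 0.00278). Their median was -0.32 against 0.00 over all genes, and 5 were lower without the rats of low profile correlation too. Of 16 elastic fibre genes 2 were lower, Efemp2 (-0.31, p = 0.0120) and Loxl1 (-0.46, p = 0.0361). Among 18 contractile genes Smtn, smoothelin, was the 1 that fell (-0.29, p = 0.00204), from 286 ± 36.4 in AKO rats to 233 ± 21.5 in HIP rats (SD, n = 10 each). Mrtfa fell as the 1 of 12 transcription factors (-0.24, p = 0.00983) and Tgfb1 as the 1 of 11 genes of TGF-beta signalling (-0.40, p = 0.0180).

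None of the lists set beside the 10 held a gene with an adjusted p under 0.05 in this comparison by limma. Without the rats of low profile correlation 5 lists held 1 each, among them Col4a1 (adjusted p = 0.0155, from 0.1003), Loxl1 (0.0238, from 0.356), Itgam (0.0299, from 0.107) and Olig1 (0.0382, from 0.2196). The counts that follow stand beside 6.9% lower and 5.85% higher among all genes. Pdgfa, a ligand of the PDGF family, was the 1 of 4 that fell in HIP rats (-0.21, p = 0.0141, 10 of 10 below the AKO median). Of 13 Notch genes 2 fell, Notch4 (-0.32, p = 0.0102) and the target Hey1 (-0.18, p = 0.0319). Of 17 genes of vascular tone 2 were higher, the subunits of the nitric oxide receptor Gucy1b1 (0.23, p = 0.0165) and Gucy1a1 (0.27, p = 0.0247). Among 18 other pericyte genes Ifitm1 was the 1 that was lower (-0.89, p = 0.0263), and 1 was higher.

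Of 8 oligodendrocyte precursor markers 3 were lower in HIP than in AKO rats, as Cspg4 was, beside 6.9% lower among all genes, Olig1 (-0.35, p = 0.00492), Olig2 (-0.38, p = 0.00580) and C1ql1 (-0.60, p = 0.0468, and -0.60, p = 0.0504 without the rats of low profile correlation). Microglia markers were lower in 4 of 9 and higher in 1, with Itgam at -0.85 (p = 0.000630) and Tmem119 at 0.52 (p = 0.0262). Of 14 endothelial markers 2 were lower, Esam (-0.34, p = 0.00692) and Slc2a1 (-0.23, p = 0.0464, and -0.10, p = 0.215 without those rats), and of 15 fibroblast markers 1, Foxc1 (-0.46, p = 0.0257). The summed endothelial level was 8538 ± 1219 normalized counts in AKO rats and 7657 ± 471 in HIP rats (SD, n = 10 each), and the summed fibroblast level 6135 ± 2802 and 5234 ± 1794. The part of these cells in the values of Cspg4 and Des was not tested.

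**Figure D3:**
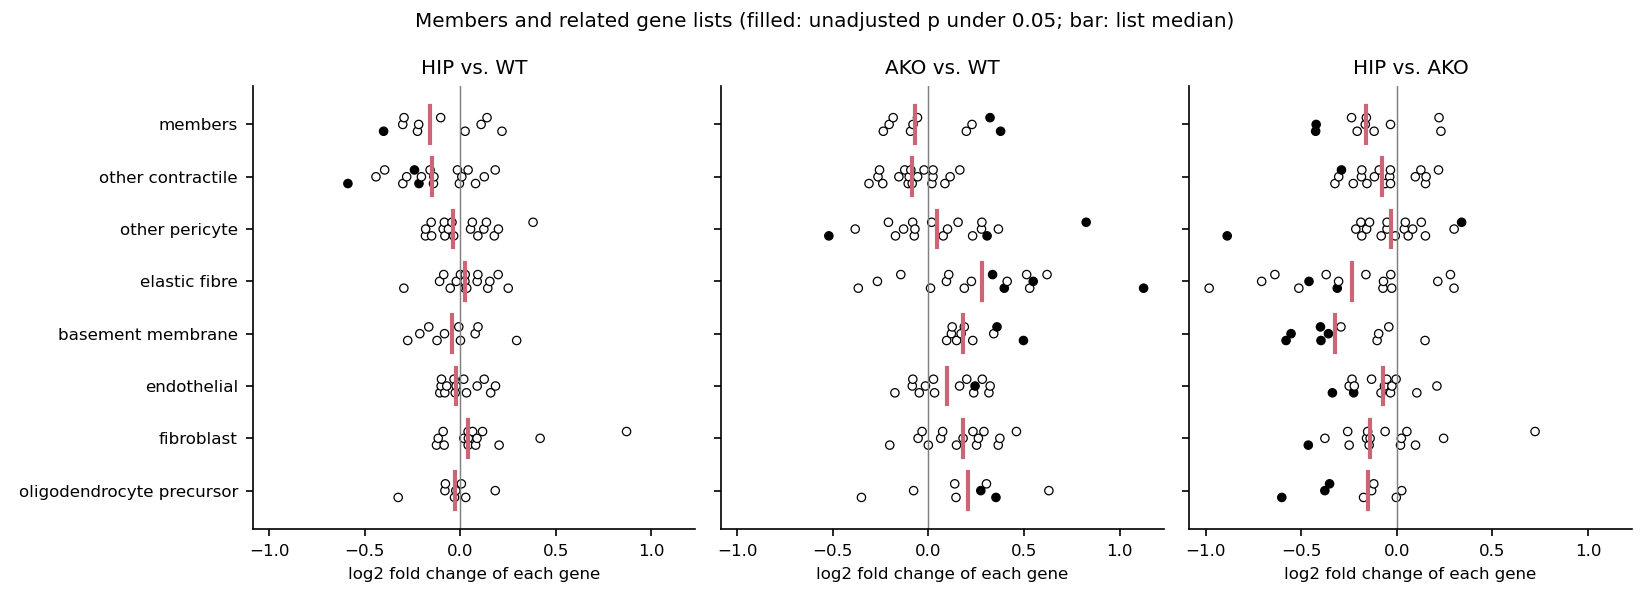
Log2 fold change (horizontal axis) of every tested gene of the 10 and of 7 related lists, for HIP vs. WT, AKO vs. WT and HIP vs. AKO. Filled points have an unadjusted p under 0.05 by limma and red bars are list medians, such as -0.15 for other contractile genes in the first panel and -0.32 for basement membrane genes in the third.

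Lists of tissues next to the cortex were looked at for each rat and comparison. Between HIP and WT rats limma gave an unadjusted p under 0.05 to 0 of 6 skeletal muscle, 12 choroid plexus, 7 pineal gland, 7 cerebellum, 10 striatum, 5 olfactory bulb, 9 neocortical, 9 microglia and 3 blood markers. Between AKO and WT rats 1 muscle marker (Myh4, 0.75, p = 0.0277), 1 choroid plexus marker (Aqp1, 1.09, p = 0.0332) and 1 blood marker (Hba-a3, 0.65, p = 0.0344) were higher, and 0 of the pineal gland, cerebellum, striatum, olfactory bulb and neocortical markers were called. Between HIP and AKO rats Tnnt3 of muscle (-1.12, p = 0.00856), Tac1 of the striatum (-0.83, p = 0.0393) and Hbb-bs of blood (-0.84, p = 0.0241) were lower, while 0 of the choroid plexus, pineal gland, cerebellum and olfactory bulb markers were called. These counts stand beside 5.23% higher among all genes for AKO against WT rats and 6.9% lower for HIP against AKO rats. Without the rats of low profile correlation Myh4 (0.38, p = 0.173), Aqp1 (0.68, p = 0.171) and Tac1 (-0.59, p = 0.147) did not pass. The summed blood level, with Hba-a2 as the most abundant gene, reached 41636 normalized counts in AKO rat 4KAH35, which also had the highest Acta2, Tagln, Rgs5, Pdgfrb and Notch3 of all 30 rats. Rat 4KAH35 was not high in blood markers alone. Its summed endothelial (10485), fibroblast (11213), other contractile (15753) and other pericyte (4866) levels were the highest of all 30 rats too. Its summed basement membrane (15644) and vascular tone (8406) levels were not. The summed level of the striatum markers was highest in its group in AKO rat 4KAH27, at 24819. The part of these tissues in the results was not tested.

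Over the 30 rats most pairs of the 10 genes correlated. Without the AKO rats numbered KAH most pairs no longer passed, as given in the last section. Of the 45 pairs, 33 had an adjusted p under 0.05 (permutation test of Pearson's r on log2 values, 2-sided, Benjamini-Hochberg over the 45), and 30 had one by Spearman's rho. All 45 values of r were above 0, with a median of 0.455. The share of pairs of other genes that correlate in these rats was not computed. The closest pair was Acta2 and Tagln (r = 0.926, p = 1e-05, adjusted p = 0.000112, rho = 0.933, rho p = 1e-05), and 1e-05 is the smallest p that the permutations can give. Without the 2 rats farthest from the median of Acta2, 4KAH35 and 4KAH27, r was 0.904, and within groups it was 0.932 in WT, 0.892 in HIP and 0.924 in AKO rats. Acta2 and Myh11 followed (r = 0.836, rho = 0.819, both p = 1e-05, r = 0.802 without 2 rats). Eln had r = 0.729 with Acta2 (p = 1e-05, rho = 0.639, rho p = 0.000280, r = 0.658 without 2 rats) and r = 0.711 with Tagln (p = 2e-05, rho = 0.666, rho p = 0.000120, r = 0.672 without 2 rats). Among HIP rats alone these were 0.357 and 0.209. With Myh11, Eln had r = 0.455 (p = 0.0107, rho = 0.401, rho p = 0.0296, adjusted p = 0.0209, r = 0.5495 without 2 rats), and 0.0658 among WT rats.

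**Figure D4:**
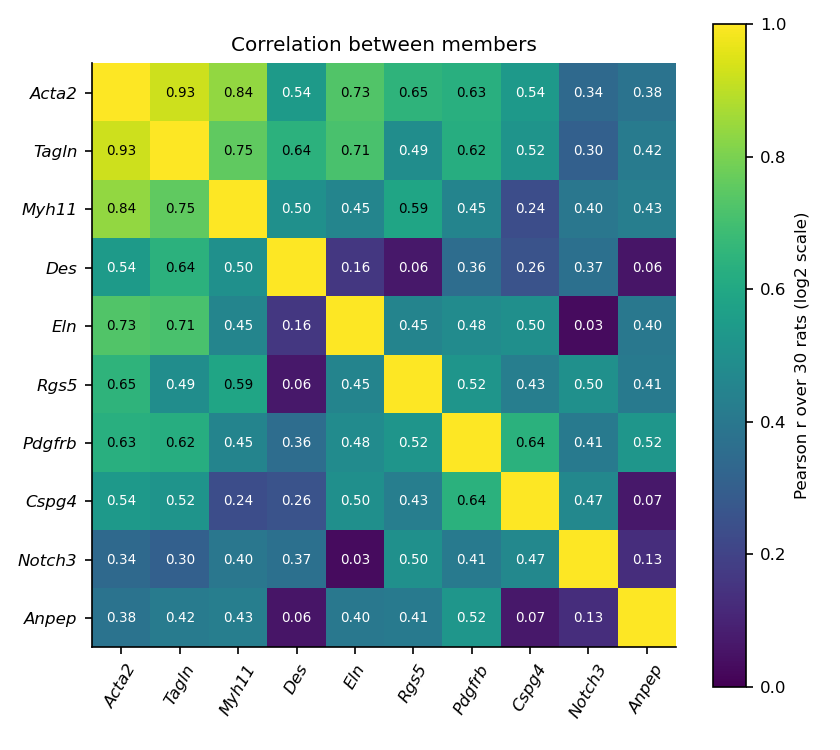
Pearson's r of log2 normalized counts over the 30 rats for each pair of the 10 genes, by colour and number. The contractile genes Acta2, Tagln and Myh11 form the block of highest values, and the lowest value is 0.0283 for Notch3 and Eln.

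Among pairs with a pericyte gene, Pdgfrb correlated with Cspg4 (r = 0.638, p = 0.000160, rho = 0.552, rho p = 0.00177, adjusted p = 0.000850, r = 0.485 without 2 rats), and Rgs5 with Acta2 (r = 0.650, p = 9e-05, rho = 0.650, rho p = 0.000150, adjusted p = 0.000675, r = 0.529 without 2 rats). The lowest r was that of Notch3 and Eln (r = 0.0283, p = 0.882, rho = 0.0376, rho p = 0.845). The median r of the pairs was 0.608 among WT rats, 0.320 among HIP rats and 0.652 among AKO rats; these differences were not tested.

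Des went with the contractile genes in WT and HIP rats and apart from them in AKO rats. Over 30 rats Tagln and Des had r = 0.641 (p = 0.000120, rho = 0.682, rho p = 4e-05, adjusted p = 0.000771), and r = 0.879 without 4KAH35 and 4KAH27. Acta2 and Des had r = 0.544 (p = 0.00183, rho = 0.667, rho p = 8e-05, adjusted p = 0.00654), with 0.875 among WT rats, 0.800 among HIP rats and -0.0727 among AKO rats. Des and Rgs5 had r = 0.0644 (p = 0.736, rho = 0.304, rho p = 0.104), and r = 0.577 without 6KAH98 and 4KAH27. These 2 AKO rats joined the highest Des of all rats (259 and 263) to the lowest Rgs5 (204 and 199), so the value over 30 rats rests on them. Des and Cspg4 had r = 0.829 among WT rats and -0.662 among AKO rats, where the same 2 rats had the lowest Cspg4. Whether these values of r differ between groups was not tested.

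**Figure D5:**
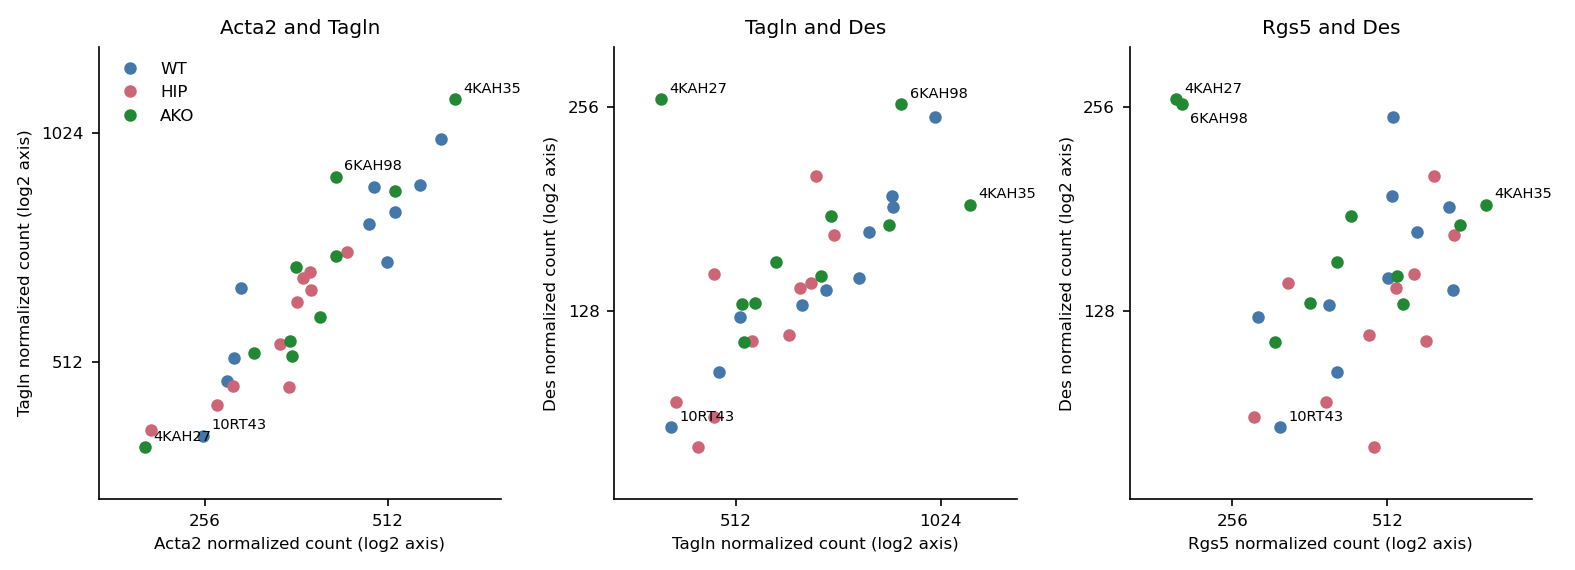
Normalized counts (log2 axes) of Acta2 and Tagln, Tagln and Des, and Rgs5 and Des in the 30 rats, by group. Acta2 and Tagln lie along a line (r = 0.926), whereas 4KAH27 and 6KAH98 have the highest Des with the lowest Rgs5, at 199 and 204.

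The 10 genes were also set against the summed levels of 5 lists, with values centred on their group means, a relation added after the data were seen. Of the 50 relations 14 had an adjusted p under 0.05 (permutation test, 2-sided, 30 rats). Tagln went with the other contractile genes (r = 0.651, p = 8e-05, rho = 0.566, rho p = 0.00123, adjusted p = 0.00375, r = 0.566 without 2 rats). Anpep went with the fibroblast markers (r = 0.632, p = 0.000150, rho = 0.505, rho p = 0.00494, adjusted p = 0.00375, r = 0.595 without 2 rats), and Eln with them less closely (r = 0.449, p = 0.0113, rho = 0.487, rho p = 0.00689, adjusted p = 0.0405, r = 0.376 without 2 rats). Of the 10 genes 5 had an adjusted p under 0.05 with the endothelial markers: Des (r = 0.527), Rgs5 (0.500), Notch3, Tagln (0.484) and Acta2 (0.460). Without 2 rats r was 0.377 for Rgs5, 0.277 for Tagln and 0.281 for Acta2. For Notch3 r was 0.493 (p = 0.00576, rho = 0.531, rho p = 0.00304, adjusted p = 0.0320, r = 0.374 without 2 rats), and for Des the full values were p = 0.00257, rho = 0.531, rho p = 0.00273, adjusted p = 0.0202 and r = 0.463 without 2 rats. Cspg4 and the oligodendrocyte precursor markers had r = 0.413 (p = 0.0259, rho = 0.270, rho p = 0.148, adjusted p = 0.0745), and 0.167 without 2 rats. This relation did not pass the adjustment, and the part of these cells in Cspg4 was not tested. Pdgfrb passed with the same markers (r = 0.530, p = 0.00283, rho = 0.362, rho p = 0.0506, adjusted p = 0.0202, r = 0.321 without 2 rats).

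Outside the 10, the genes most like their mean profile were searched among 13702 genes by Pearson's r of centred log2 values over the 30 rats, as a description with no test. Irag1, a substrate of cGMP-dependent protein kinase in smooth muscle, was closest (r = 0.824, rho = 0.787), and among the next were Dock5, Psd4, Abcb1b, Cped1, Rassf9, Atp13a5, Lrp5 and Grm3 (r from 0.765 to 0.741). For single genes the closest were Abcb1b to Rgs5 (r = 0.920), Unc13b to Cspg4 (0.870), Irag1 to Acta2 (0.812), Olfml1 to Eln (0.801), Tgfbr2 to Pdgfrb (0.794) and Cnn1, calponin, to Tagln (0.782). Rps6ka3 was closest to Notch3 (0.735), Dync2h1 to Myh11 (0.702), Ctsl to Des (0.698) and Pear1 to Anpep (0.695). Abcb1b encodes a drug efflux pump, and among AKO rats its r with Rgs5 was 0.982. Unc13b and Cspg4 had r = 0.964 among WT rats, 0.984 among AKO rats and 0.138 among HIP rats, whose Cspg4 values lay close together.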

How the data were processed

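RNA from the brains of 30 rats was sequenced, 1 library per rat. The deposited signal is a table of normalized counts for 17134 genes, which the authors made by aligning reads to the rat genome rn7 with STAR 2.7.8a in Partek Flow 10.0.22.0228, counting them on genes and dividing by a factor per rat with DESeq2. The values are not whole numbers. The value of 1 read was estimated in each rat as the step whose whole multiples (within 0.02 of a step) hold most values under 100, but only 80.9 to 84.6% of these values were whole multiples, so whole reads were not recovered and no count model was fitted. By that step the libraries held 12.9 to 23.6 M reads on genes.

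Log2 values of the normalized count plus 1, for genes with a mean of at least 1, were fitted by limma 3.58.1 (R 4.3.3; lmFit, eBayes with trend) with the 20 rats of each comparison, no covariates and 2-sided tests. Differences of the 10 genes were also tested by permuting rats (100000 resamples), as were correlations. Tables and figures were made with Python 3.11.15, numpy 2.4.6, pandas 2.3.3 and matplotlib 3.10.9. The 10 genes and the lists set beside them were chosen with earlier results of these data known, and 21 listed genes are not analysed here. Beyond the 10 genes, the text names at most the 3 genes of a list with the smallest unadjusted p under 0.05 in each comparison, the most abundant gene of a list of markers, and the genes most alike in profile with a mean of at least 10.

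Alternatives written down before the fits were run were pseudocounts of 0.1 and 5, no filter and a mean of at least 10, and quantile and median-ratio normalization. Also written down were robust eBayes, sample-quality weights, all 30 rats in 1 fit, a permutation test, centring on group means and leaving out each rat in turn. Leaving out 10RT43, 10RT46, 10RT48 or 7AKO19, and those 4 together, was listed with them. These 4 rats are among those flagged below in the same data, so their choice was not blind to the data. Chosen after the data were seen were leaving out the rats with a median profile correlation under 0.96 (10RT43, 10RT46, 6KAH98 and 4KAH27), the 4 AKO rats numbered KAH, or the 4 rats together with 4KAH27, and also the wider form of the CArG box and the correlations with list levels. Leaving out 10RT43, 10RT46, 10RT48 or 7AKO19 alone is counted both under its name and among the single rats. Counts of settings and of values under every alternative therefore hold those fits more than once, where the rat is in the comparison. No sample was left out of the values reported first.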

Additional observations from a re-analysis of the deposited data

Results flagged for a closer look

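In each group of 10 rats the gap between the most extreme rat and the next, over the range of the group, was compared with Dixon's critical value for 10 samples. Chance flags about 1 in 20 groups, or 4.65 of the 93 groups examined, and 16 groups passed, 1 of 30 for the 10 genes and 15 of 63 for the lists. WT rat 10RT43 accounts for 7 and HIP rat 10RT46 for 4.

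Anpep was at 130.9 normalized counts in HIP rat 10RT46, against 61.7 to 86.7 in the other 9 HIP rats. The remaining values are means of log2 values over a list. In 10RT43 the PDGF ligands were at 6.68 (7.28 to 7.77 in the other 9 WT rats). Its smooth muscle transcription factors were at 6.74 (7.08 to 7.42). Its TGF-beta signalling genes were at 7.96 (8.48 to 8.81). Its oligodendrocyte precursor markers were at 8.17 (8.72 to 9.05), its microglia markers at 7.77 (8.32 to 8.75), its neocortical markers at 6.01 (10.02 to 10.68) and its cerebellum markers at 12.20 (2.20 to 2.79).

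In HIP rat 10RT46 the choroid plexus markers were at 8.59 (2.29 to 3.67 in the other 9 HIP rats), the pineal gland markers at 9.94 (0.77 to 1.32) and the neocortical markers at 9.84 (10.21 to 10.58). HIP rat 12RT23 had cerebellum markers at 8.89 (2.01 to 3.87), and HIP rat 10RT48 had microglia markers at 9.83 (8.05 to 8.62). Among AKO rats, 7AKO19 had choroid plexus markers at 6.54 (2.701 to 4.130), 6AKO52 had skeletal muscle markers at 4.72 (3.45 to 4.02) and 6KAH98 had TGF-beta signalling genes at 8.11 (8.54 to 9.01).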

How the results depend on the processing

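The unadjusted p was under 0.05 for 1 of the 10 genes in the comparison of HIP with WT rats, and the number was 0 with all 30 rats in 1 fit, 4 with sample-quality weights, 4 without 10RT43, 2 without 10RT48, 5 without the 4 rats 10RT43, 10RT46, 10RT48 and 7AKO19, and 4 without the rats of low profile correlation. Leaving out single rats gave 0 to 4. Among all genes the number, 439, was 885 with weights, 779 without 10RT46, 840 without the 4 rats and 817 without the rats of low profile correlation, and 309 to 779 without single rats. After adjustment limma called 0 genes whichever single rat was left out. Rgs5, at 0.03, was at -0.0857 with weights, -0.0387 without 10RT43, -0.0321 without 10RT48 and -0.0347 without the 4 rats, and at -0.0545 to 0.111 without single rats. Pdgfrb, at 0.11, was at -0.00237 without the 4 rats.

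Between AKO and WT rats, 2 of the 10 genes passed, and 1 did with weights, 0 without 10RT43, 1 without 7AKO19, 0 without the 4 rats, 1 without the AKO rats numbered KAH and 1 by permutation, with 0 to 2 without single rats. Among all genes 1594 had an unadjusted p under 0.05, 3930 with weights and 1311 to 1974 without single rats. After adjustment 17 passed, 27 with all 30 rats in 1 fit, 857 with weights, 10 without 7AKO19, 97 without the rats of low profile correlation, 68 without the AKO rats numbered KAH, 35 without the 4 rats and 4KAH27, and 10 to 39 without single rats. Des, at 0.20, was at -0.0741 with weights, -0.0462 without the rats of low profile correlation and -0.0480 without those numbered KAH. Anpep, at -0.08, was at 0.0457 without the 4 rats and 4KAH27. Without single rats Acta2 was at -0.18 to 0.00712 and Tagln at -0.145 to 0.0230.

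Between HIP and AKO rats, 2 of the 10 genes passed, 1 with weights and 6 without the 4 rats and 4KAH27 (Pdgfrb, Acta2, Tagln, Des, Cspg4 and Eln), and 1 to 4 without single rats. Among all genes 2179 had an unadjusted p under 0.05, 4289 with weights and 1657 to 3005 without single rats. After adjustment 29 passed, 56 with all 30 rats in 1 fit, 1143 with weights, 70 without 10RT46, 18 without 7AKO19, 59 without the 4 rats, 281 without the rats of low profile correlation, 120 without those numbered KAH, 129 without the 4 rats and 4KAH27, and 17 to 70 without single rats. Myh11, at -0.03, was at 0.13 without the AKO rats numbered KAH and at -0.0978 to 0.0466 without single rats.

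Of the 45 pairs of genes 33 had an adjusted p under 0.05, and 17 did without the AKO rats numbered KAH. Without the 4 rats r was -0.0534 for Des and Rgs5 and -0.0360 for Notch3 and Eln. In all these the cause was not tested. Of the fold changes of the 10 genes under every alternative, 308 of 350 kept their direction and side of the threshold between HIP and WT rats, 320 of 360 between AKO and WT rats and 350 of 370 between HIP and AKO rats. Pseudocount, filter and robust variance are among the settings that reversed none of them. Depth limits the genes with few reads most, since 1 read was worth up to 1.37 normalized counts. No paired analysis was possible because the rats of different groups are not matched in the labels.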
